A study of Homo sapiens with 6 samples.

Results

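Interferon-stimulated genes and the transcription factors that act on them were followed on 6 arrays of MSTO-211H cells, called MSTO cells here, an established human mesothelioma cell line. The set held 43 genes listed by symbol as known interferon-stimulated genes or factors of the pathway, and 41 of the 43 had a row among the 21448 rows tested. STAT2 and TRIM25 matched no row and have no value here. The anti-miR-503 group was 3 cultures treated with an inhibitor of miR-503 for 48 h. For its cell assays the paper names transfection of the inhibitor with the lipid reagent Lipofectamine RNAiMAX. The control group was 3 cultures for which the sources differ: the sample titles call them untreated, the treatment note gives 0.1% DMSO as vehicle, and the methods name a negative control inhibitor as well as untreated cells. If these cultures were not transfected, the inhibitor and its transfection cannot be told apart in any difference below. All 6 cultures came from 1 cell line, were given as biological replicates, and gave 100 ng of RNA each for a Clariom S array. Values were deposited as log2 signals, on which a difference of 1 is 2-fold. Signals of different genes come from different probes and were not compared with each other.

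Interferons are secreted proteins that bind receptors on the cell surface and activate kinases. For type I and type III interferons these kinases are JAK1 and TYK2. STAT2 and IRF9 then act within the complex ISGF3, which binds the interferon-stimulated response element (ISRE). Interferon gamma acts through the gamma-activated site (GAS), and IRF1 and IRF7 carry the response further. The genes switched on encode antiviral proteins: IFIT proteins bind viral RNA, IFITM proteins act in membranes that viruses enter through, guanylate-binding and MX proteins are large GTPases, and PARP, TRIM and nuclear body proteins modify or sequester viral components. Many cultured cells keep some of these genes on without added interferon.

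The inhibitor was directed at hsa-miR-503-5p, which RefSeq places on the minus strand at chrX:134546371-134546393 of GRCh38.p14. Its mature sequence is shown because it is the target of the treatment, with the seed (bases 2 to 8) in capitals.
hsa-miR-503-5p: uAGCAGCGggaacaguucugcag
The mature miRNA itself was not analysed on these arrays.

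The promoter stretches of 7 members the results turn on are shown to print the letters counted in the motif search, and were picked among members that hold a match. Each is the 150 bases before the annotated start in the RefSeq annotation of GRCh38.p14, 5′ to 3′ on the gene's strand, with matches to the ISRE core GAAANNGAAA, on either strand and with N for any base, in capitals. Where RefSeq gave several starts, the stretch with the most matches is shown.
IFIT1 (chr10:89392473-89392622, plus strand): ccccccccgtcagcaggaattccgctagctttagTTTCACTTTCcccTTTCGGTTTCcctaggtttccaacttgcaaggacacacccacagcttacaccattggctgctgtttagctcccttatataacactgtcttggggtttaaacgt
IFIT3 (chr10:89332379-89332528, plus strand): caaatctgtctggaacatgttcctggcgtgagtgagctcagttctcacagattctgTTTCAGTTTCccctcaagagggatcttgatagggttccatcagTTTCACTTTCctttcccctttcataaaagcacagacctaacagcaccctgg
PARP9 (chr3:122564301-122564450, minus strand): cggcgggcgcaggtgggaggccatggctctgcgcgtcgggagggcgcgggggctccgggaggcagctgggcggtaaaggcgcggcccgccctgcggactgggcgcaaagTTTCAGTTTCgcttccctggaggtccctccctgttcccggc
IFI44 (chr1:78649639-78649788, plus strand): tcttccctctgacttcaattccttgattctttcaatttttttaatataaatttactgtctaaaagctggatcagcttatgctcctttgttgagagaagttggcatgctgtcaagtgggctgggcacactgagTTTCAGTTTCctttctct
GBP1 (chr1:89065209-89065358, minus strand): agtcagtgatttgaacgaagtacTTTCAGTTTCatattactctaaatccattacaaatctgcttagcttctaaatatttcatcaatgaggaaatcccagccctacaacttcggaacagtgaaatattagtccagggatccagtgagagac
SAMD9 (chr7:93117980-93118129, minus strand): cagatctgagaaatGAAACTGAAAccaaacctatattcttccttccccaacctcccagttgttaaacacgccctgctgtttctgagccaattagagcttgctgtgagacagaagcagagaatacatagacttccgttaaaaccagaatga
PARP14 (chr3:122680689-122680838, plus strand): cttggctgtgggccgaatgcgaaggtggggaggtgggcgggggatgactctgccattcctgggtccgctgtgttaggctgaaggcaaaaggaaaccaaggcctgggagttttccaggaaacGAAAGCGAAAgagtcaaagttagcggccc
IFIT1 and IFIT3 held 2 matches each in these bases, and the other 5 stretches held 1. RefSeq windows of 250 bases before and 50 after the start were found for 36 of the 43 members, and not for IRF7, IFIT2, IFITM2, MX2, GBP2, PML and TRIM22. The ISRE core lay in a window of 25 of the 36 members (69.4%), against 4.38% of all genes with a window. The GAS letters TTCNNNGAA lay in 12 of the 36 (33.3%), against 9.38% of all genes, and a GAS match overlapped an ISRE core match in 5 members. The members were chosen as interferon-stimulated genes, so these shares describe the set and are not a result of the arrays. DTX3L, which encodes the ubiquitin ligase partner of PARP9, lies head to head with it, and 1 of the 2 PARP9 windows shared 137 bases with the DTX3L window. The 150 bases before the DTX3L start held 0 whole matches. The match printed for PARP9 runs over the DTX3L start, so both genes hold this same site.

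The arrays did not separate cleanly by group. Over all rows the highest correlation of the 15 pairs was between anti-miR-503 replicate 1 and control replicate 3 (Pearson's r = 0.991 across rows, which are not independent), and the range was 0.974 to 0.991. Genes of dividing cells (MKI67, TOP2A, CCNB1, CDC20, PLK1 and BUB1) were low in the same pair of arrays: their mean log2 signal was 10.33, 12.98 and 13.03 in anti-miR-503 replicates 1 to 3, and 12.75, 13.15 and 9.49 in control replicates 1 to 3. Results are therefore given with and without control replicate 3, and for counts also without both arrays. The part that this difference in dividing-cell genes has in the results below was not tested. Mesothelioma markers MSLN and CALB2 and the keratins KRT8 and KRT18 were above background on every array, while WT1, KRT5, KRT19, PDPN and THBD were not on any. Of 11 leukocyte, 3 endothelial and 3 fibroblast markers measured, 0 were above background on any array.

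Background was set for each array at the 95th percentile of its negative controls, 7.44 to 7.75 for anti-miR-503 and 7.77 to 8.09 for control. Of the 41 members, 28 were above it on all 6 arrays, 10 on none and 3 on some. The 10 on none were IRF7, IFI27, BST2, MX1, MX2, RSAD2, CMPK2, TRIM21, XAF1 and EPSTI1, and no fold is read from these. The 3 on some were IRF9, IFI44L and GBP2. In bulk RNA, more cells with an active gene and more RNA per cell cannot be told apart.

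The level of the whole set, taken as the mean log2 signal over the 41 measured members, was 9.68, 9.59 and 9.41 in anti-miR-503 replicates 1 to 3. It was 9.18, 9.37 and 9.75 in control replicates 1 to 3. The highest and the lowest of the 6 arrays were both controls, and the groups overlapped. The means were 9.56 ± 0.14 for anti-miR-503 and 9.43 ± 0.29 for control (SD, n = 3 each), a difference of 0.13 on the log2 scale that was smaller than the spread among the controls. Control replicate 3 stood 0.48 above the mean of the other 2 controls. The anti-miR-503 mean was 0.29 above that mean, 0.19 below control replicate 3, and level with the mean of control replicates 2 and 3. Taken as the median over the members instead of the mean, the difference was 0.25, and anti-miR-503 replicate 2 was the highest array (9.96, against 9.93 in control replicate 3). The direction of the set's mean level therefore depended on which control it was set against. Since the members were chosen with earlier results of these arrays known, the set's level carries no p.

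**Figure D1:**
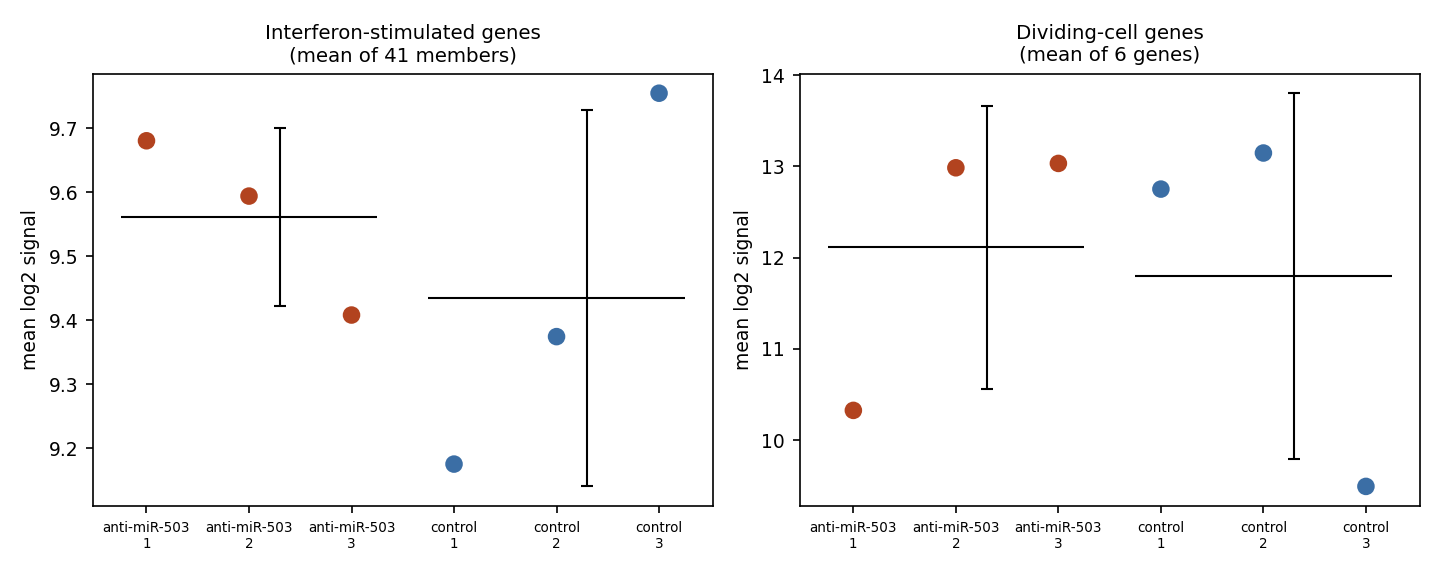
Mean log2 signal per array (y axis) of the 41 measured interferon members (left) and of 6 dividing-cell genes (right), for anti-miR-503 replicates 1 to 3 and control replicates 1 to 3 (x axis). Points are arrays, horizontal lines group means and vertical bars SD (n = 3 each). Control replicate 3 had the highest interferon level and the lowest dividing-cell level, and control replicate 1 had the lowest interferon level.

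Control replicates 1 and 3 marked the low and the high end for much of the set. Control replicate 1 was the lowest of the 6 arrays for 16 of the 41 members (19.6% of all rows tested), and the lowest of the 3 controls for 24 members (34.4% of all rows). Control replicate 3 was the highest of the 6 arrays for 12 members (17.4% of all rows) and the highest of the 3 controls for 25 (37.2% of all rows). The median distance of control replicate 3 from the mean of the other controls was 0.40 over the members and 0.011 over all rows. Among members with an ISRE core in a window the median distance was 0.60 (25 members), and among members without it 0.11 (9 members). For the GAS letters the same split gave 0.50 with a match (12 members) and 0.45 without (22 members). Members below background on every array are in each of these groups. These medians describe the members and carry no test.

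Between the groups, 0 of the 41 members passed an adjusted p under 0.05 in limma, adjusted over all 21448 rows by Benjamini-Hochberg, and neither did any other row (0% of rows). The members' adjusted p-values in limma ran from 0.756 to 0.993. At an unadjusted p of 0.05 or less, 3 members were higher in anti-miR-503 cells (3.28% of all rows) and 0 were lower (3.14% of all rows). A second, looser threshold asked for an unadjusted p of 0.05 or less and at least a 2-fold difference. On it 1 member was higher, IFI44 (0.872% of all rows were), and 0 were lower (0.914%). The share of 1 in 41 was near that background. The 3 anti-miR-503 values all lay above the 3 control values in 4 members, IFIT1, IFIT3, GBP2 and PARP9 (5.92% of all rows), and all lay below them in 0 (4.6% of all rows).

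The log2 fold changes, anti-miR-503 over control, ranged from -0.85 for SAMD9L to 1.28 for IFI44. Directions here follow the sample labels. The study's own gene list has IFI44 with the opposite sign, and since it was picked there from these same arrays, its direction is not independent evidence. Why the signs differ was not tested. A swap of the group labels would reverse every direction given here. Signs of other genes in that list are not given here. Of the 41 members 24 had a value above 0 and 17 below, with a median of 0.05, against 0.0098 over all rows. Over the 31 members above background on at least 1 array, 20 were above 0 and 11 below, with a median of 0.12. The median size regardless of sign was 0.23 for the members and 0.22 for all rows, so sizes over the members were close to those over all rows.

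**Figure D2:**
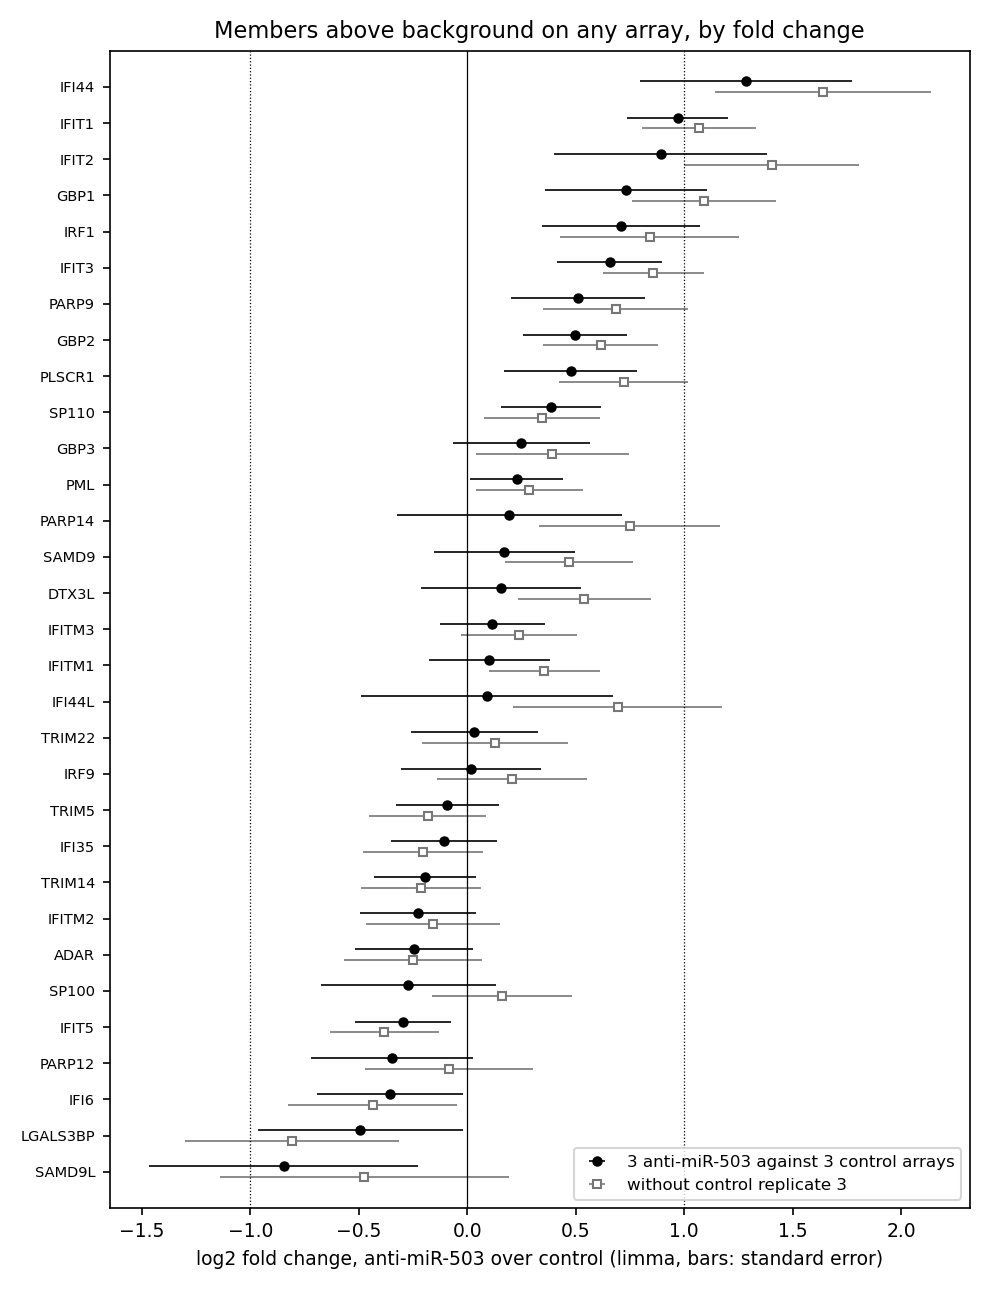
Log2 fold change, anti-miR-503 over control (x axis), of the 31 members above background on at least 1 array, with members down the y axis ordered by it and bars for the limma standard error. Filled circles use 3 arrays per group and open squares leave out control replicate 3; dotted lines mark 2-fold. IFI44 lay past 2-fold with all arrays, and IFIT1, IFIT2 and GBP1 as well without control replicate 3.

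The transcription factors came first in the pathway. IRF1, which binds ISRE-like sites and is itself induced by interferon, had log2 signals of 9.78, 10.68 and 10.04 in anti-miR-503 replicates 1 to 3, against 8.75, 9.90 and 9.72 in control replicates 1 to 3. The groups overlapped only through anti-miR-503 replicate 1, which lay just below control replicate 2. Its log2 fold change was 0.71 (SE 0.36; limma adjusted p = 0.762), and 0.35 without control replicate 1. IRF9, the DNA-binding part of ISGF3, had 7.93, 7.81 and 6.94 in anti-miR-503 cells, against 7.21, 7.49 and 7.92 in control cells, with anti-miR-503 replicate 3 the lowest of all 6 arrays. For IRF9 that array and control replicates 1 and 2 were below background. IRF7, which amplifies the type I response, stayed between 2.73 and 3.33 in anti-miR-503 cells and between 2.70 and 3.21 in control cells, below background throughout.

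The IFIT family, which binds the ends of foreign RNA, held the 2 members with the lowest unadjusted p-values of the set, IFIT1 and IFIT3. IFIT1 had log2 signals of 11.19, 11.53 and 11.33 in anti-miR-503 replicates 1 to 3, against 10.07, 10.50 and 10.58 in control replicates 1 to 3. Every anti-miR-503 array lay above every control array, by at least 0.62 on the log2 scale. IFIT1 had a log2 fold change of 0.97 (SE 0.23; limma adjusted p = 0.756), just short of 2-fold. IFIT3, which binds and stabilizes IFIT1, had 13.23, 13.33 and 13.26 in anti-miR-503 cells, against 12.36, 12.48 and 13.02 in control cells. The 3 anti-miR-503 arrays were close together and again above all controls, though control replicate 3 came near them. IFIT3 had a log2 fold change of 0.66 (SE 0.24; limma adjusted p = 0.756).

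IFIT2, whose protein also joins complexes with IFIT1 and IFIT3, spread more widely. Its log2 signal was 13.38, 13.28 and 12.81 in anti-miR-503 replicates 1 to 3, against 11.11, 12.40 and 13.29 in control replicates 1 to 3. Control replicate 3 lay among the anti-miR-503 arrays, and control replicate 1 more than 4-fold below it. For IFIT2 the log2 fold change was 0.89 (SE 0.49; limma adjusted p = 0.766), 1.40 without control replicate 3 and 0.31 without control replicate 1. IFIT5, the remaining family member, had 8.21, 8.46 and 8.09 in anti-miR-503 cells, against 8.53, 8.73 and 8.37 in control cells, a log2 fold change of -0.30 (SE 0.22) that did not pass either threshold. The fold changes of the 4 IFIT genes thus did not share a sign, though the groups overlapped for IFIT5.

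IFI44, an interferon-induced cytoplasmic protein, had log2 signals of 9.71, 10.97 and 11.55 in anti-miR-503 replicates 1 to 3, against 9.18, 9.03 and 10.17 in control replicates 1 to 3. The groups overlapped, because anti-miR-503 replicate 1 lay below control replicate 3. The log2 fold change was 1.28 (SE 0.49; limma adjusted p = 0.756), or 2.44-fold. Leaving out each array in turn gave 0.88 to 1.80, and the unadjusted p was above 0.05 without control replicate 1, control replicate 2 or anti-miR-503 replicate 2, where the difference was 1.14, 1.07 and 1.17 and so still past 2-fold. Without anti-miR-503 replicate 3 it was 0.88. Its neighbour and paralog IFI44L had 8.06, 8.34 and 6.72 in anti-miR-503 cells, against 6.73, 7.30 and 8.82 in control cells. The highest value was that of control replicate 3 and the lowest that of anti-miR-503 replicate 3, the array with the highest IFI44. That lowest IFI44L value was below background and level with control replicate 1, which was below background too, as was control replicate 2.

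**Figure D3:**
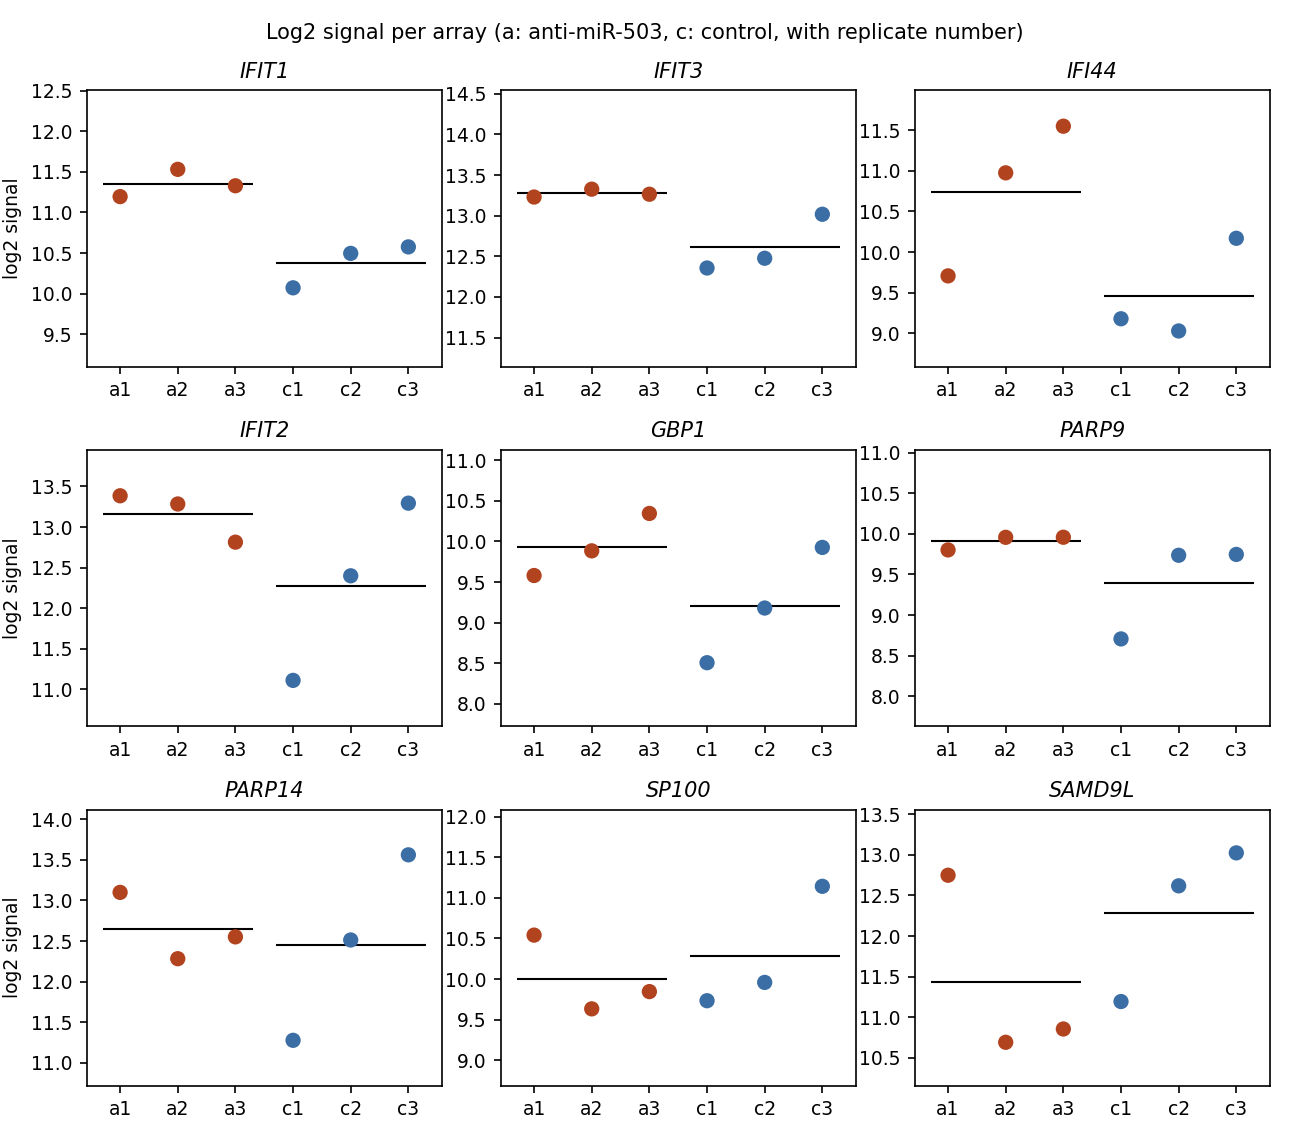
Log2 signal (y axis) of 9 members on anti-miR-503 arrays (a1 to a3, orange) and control arrays (c1 to c3, blue), numbered by replicate on the x axis, with horizontal lines at group means; each y axis spans the same range. IFIT1, IFIT3 and PARP9 did not overlap between groups, whereas PARP14, SP100 and SAMD9L had their highest value in control replicate 3.

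The other genes named for interferon induction passed neither threshold. IFI6, a membrane protein that limits cell death, had 10.52, 10.03 and 9.79 in anti-miR-503 cells, against 11.11, 9.98 and 10.31 in control cells (log2 fold change -0.36, SE 0.34). IFI35, a cytoplasmic interferon-induced protein, had a log2 fold change of -0.11 (SE 0.24). IFI27, a mitochondrial protein, had 6.53, 5.49 and 5.66 in anti-miR-503 cells, against 5.54, 4.92 and 6.65 in control cells, all below background, with anti-miR-503 replicate 1 and control replicate 3 the highest.

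The IFITM proteins sit in the plasma and endosomal membranes and block fusion of entering viruses. IFITM3 had log2 signals of 16.52, 16.40 and 16.40 in anti-miR-503 replicates 1 to 3, against 16.49, 15.92 and 16.57 in control replicates 1 to 3. IFITM2 had 15.65, 15.30 and 15.34 in anti-miR-503 cells, against 15.99, 15.18 and 15.80 in control cells. IFITM1 had 12.41, 12.39 and 12.42 in anti-miR-503 cells, against 12.30, 11.80 and 12.81 in control cells. In each of the 3 genes the anti-miR-503 arrays lay closer together than the controls, and control replicate 2 was the lowest array. The log2 fold changes were 0.12 (SE 0.24) for IFITM3, -0.23 (SE 0.27) for IFITM2 and 0.10 (SE 0.28) for IFITM1. These paralogs are closely similar in sequence, so probes of one can pick up RNA of another. BST2, which tethers budding virus to the cell, was below background.

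Among the guanylate-binding proteins, GBP1 had log2 signals of 9.58, 9.88 and 10.34 in anti-miR-503 replicates 1 to 3, against 8.51, 9.18 and 9.93 in control replicates 1 to 3. Control replicate 3 lay within the anti-miR-503 range and the other 2 controls below it. GBP1 had a log2 fold change of 0.73 (SE 0.37; limma adjusted p = 0.762), and of 0.38 without control replicate 1. GBP2 had 8.20, 8.44 and 8.11 in anti-miR-503 cells, against 7.42, 7.86 and 7.996 in control cells, without overlap. It was above background on 3 of 3 anti-miR-503 arrays and 1 of 3 control arrays (log2 fold change 0.49, SE 0.24, and 0.33 without control replicate 1; limma adjusted p = 0.756). These counts used a background per array, lower for anti-miR-503 (7.44 to 7.75) than for control (7.77 to 8.09). The 7.86 of control replicate 2 was below its own background yet above that of each anti-miR-503 array. GBP3 had a log2 fold change of 0.25 (SE 0.32) with control replicate 1 as its lowest array. The dynamin-like MX1 and MX2, which block virus nucleocapsids, were below background on all arrays.

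RSAD2 (viperin), which makes a chain-terminating nucleotide, and CMPK2, the kinase encoded beside it, were both below background on every array. RSAD2 had 7.0004, 7.29 and 6.41 in anti-miR-503 cells, against 5.59, 5.69 and 6.84 in control cells, with control replicate 3 above anti-miR-503 replicate 3. Its values followed the same order among controls as those of IFIT2 and GBP1, lowest in control replicate 1 and highest in control replicate 3. The share of all rows with that order was not counted.

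SAMD9 and SAMD9L are neighbouring genes whose proteins restrict poxviruses and slow cell growth. SAMD9 had log2 signals of 14.38, 14.23 and 14.23 in anti-miR-503 replicates 1 to 3, against 13.42, 14.19 and 14.70 in control replicates 1 to 3. The control arrays enclosed the anti-miR-503 arrays (log2 fold change 0.17, SE 0.32). SAMD9L, shown here after its values were seen, had 12.75, 10.69 and 10.86 in anti-miR-503 cells, against 11.19, 12.62 and 13.02 in control cells. Anti-miR-503 replicate 1 lay with control replicates 2 and 3, and control replicate 1 lay nearer to the other anti-miR-503 arrays. The log2 fold change of -0.85 (SE 0.62; limma adjusted p = 0.802) was the lowest of the set, and it was -0.47 without control replicate 3.

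PARP9 and DTX3L form a complex that ubiquitinates histones and viral proteins, and PARP12 and PARP14 transfer ADP-ribose. PARP9 had log2 signals of 9.80, 9.96 and 9.96 in anti-miR-503 replicates 1 to 3, against 8.71, 9.74 and 9.75 in control replicates 1 to 3. The groups did not overlap, but control replicate 3 came within 0.06 of the lowest anti-miR-503 array, and control replicate 2 lay just below it. The log2 fold change was 0.51 (SE 0.31; limma adjusted p = 0.776), and 0.16 without control replicate 1. DTX3L had 9.35, 9.04 and 8.89 in anti-miR-503 cells, against 8.19, 8.92 and 9.70 in control cells, with control replicate 3 highest. PARP14 had 13.10, 12.28 and 12.55 in anti-miR-503 cells, against 11.28, 12.51 and 13.56 in control cells. Its extremes were control replicates 1 and 3, more than 4-fold apart, and the log2 fold change was 0.19 (SE 0.52). PARP12 had 13.02, 11.87 and 12.05 in anti-miR-503 cells, against 12.15, 12.64 and 13.19 in control cells, highest in control replicate 3 and next in anti-miR-503 replicate 1.

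No measured TRIM gene passed either threshold. TRIM5, which recognizes retroviral capsids, TRIM14 and TRIM22 had log2 fold changes of -0.09, -0.19 and 0.03, each smaller than its standard error (0.24, 0.24 and 0.29). TRIM21, an antibody receptor in the cytosol, was below background. Of the nuclear body proteins, PML, the scaffold of these bodies, had a log2 fold change of 0.23 (SE 0.21) and SP110 0.39 (SE 0.23). SP100 had 10.54, 9.63 and 9.85 in anti-miR-503 cells, against 9.73, 9.96 and 11.14 in control cells. Control replicate 3 was the highest array and anti-miR-503 replicate 1 the next, an order found in 9 of the 41 members (6.6% of all rows): SP100, IFI27, IFITM3, MX2, SAMD9, SAMD9L, PARP12, PARP14 and DTX3L. It was looked for after the values were seen.

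Of the remaining effectors, PLSCR1, a phospholipid scramblase that adds to antiviral activity, had 10.55, 10.49 and 10.13 in anti-miR-503 cells, against 9.33, 10.004 and 10.40 in control cells (log2 fold change 0.48, SE 0.30, and 0.18 without control replicate 1). LGALS3BP, a secreted galectin-binding glycoprotein, had log2 signals of 13.43, 13.46 and 13.21 in anti-miR-503 replicates 1 to 3, against 15.10, 13.25 and 13.23 in control replicates 1 to 3. Control replicate 1, the lowest array for 16 other members, was more than 3-fold above the rest, and the log2 fold change was -0.49 (SE 0.47) with that array and 0.13 without it. ADAR, which edits double-stranded RNA, had a log2 fold change of -0.24 (SE 0.27). XAF1, a proapoptotic protein, and EPSTI1 were below background.

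**Figure D4:**
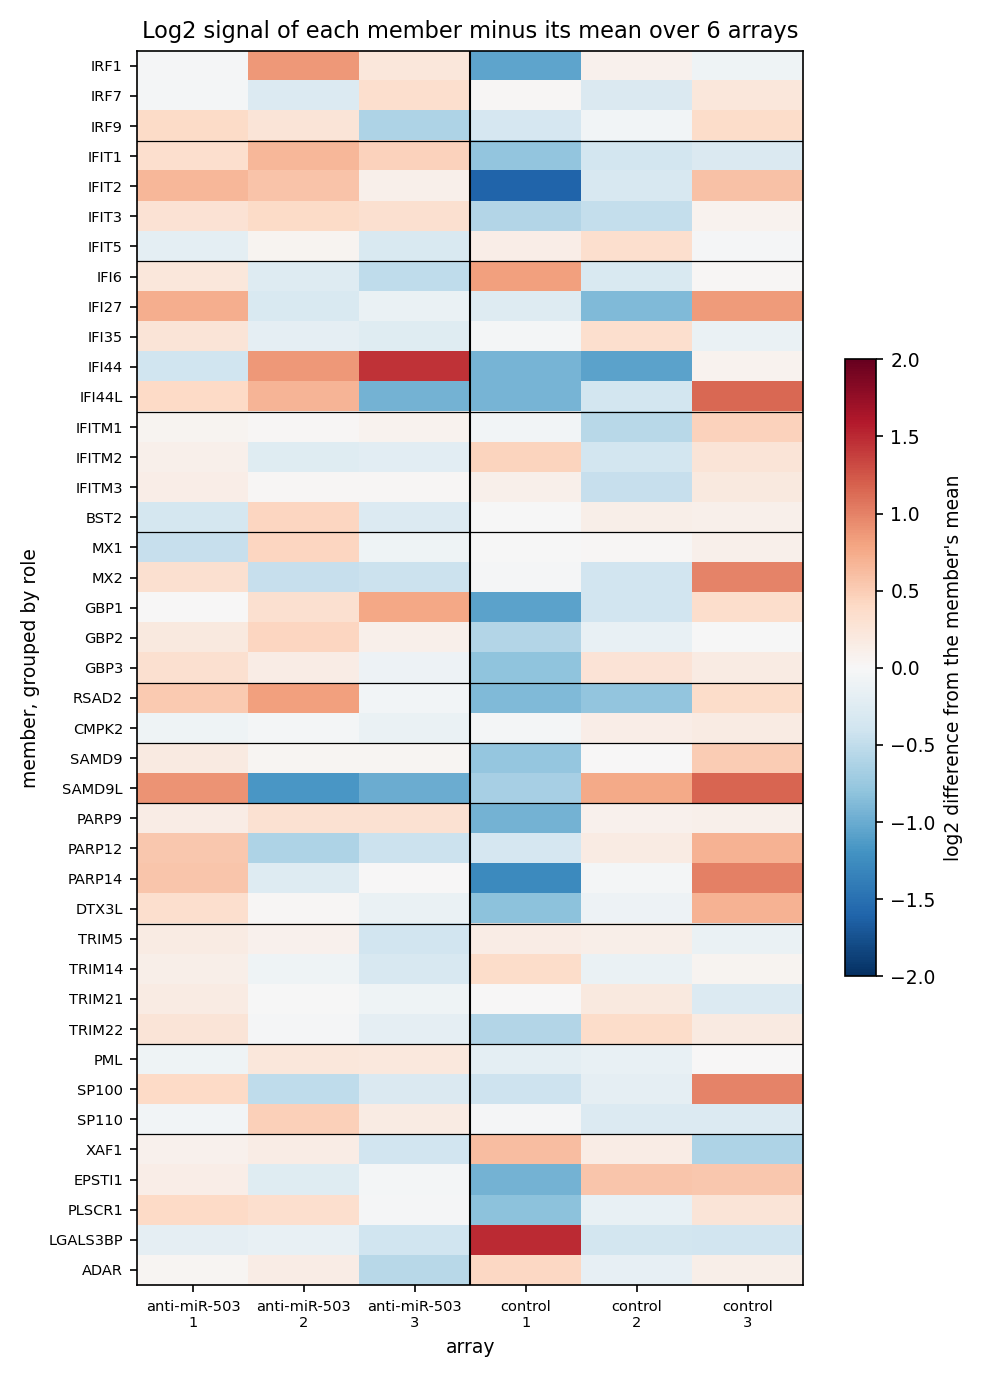
Log2 signal of each of the 41 measured members (rows, grouped by role, with lines between groups) minus its mean over the 6 arrays, for anti-miR-503 replicates 1 to 3 and control replicates 1 to 3 (columns, split by a vertical line). Blue is below and red above the member's mean, from -2 to 2 log2 units. Control replicate 1 is blue and control replicate 3 red for many members, and LGALS3BP is red in control replicate 1.

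Without control replicate 3, the comparison of 3 anti-miR-503 with 2 control arrays called more members. On the 2-fold threshold 5 of 41 were higher, IFIT1, IFIT2, IFI44, GBP1 and RSAD2 (1.38% of all rows), and 0 were lower (1.82%). Their log2 fold changes were 1.07, 1.40, 1.64 and 1.09 for IFIT1, IFIT2, IFI44 and GBP1, and RSAD2 passed on signals below background. The lowest adjusted p in limma among these 5 was 0.56. The median over the 41 members was 0.21 in this fit and 0.013 over all rows. Among members with an ISRE core it was 0.39 (25 members) and among those without it -0.13 (9 members). With all 6 arrays the same medians were 0.12, with 16 of 25 above 0, and -0.11, with 3 of 9 above 0. Split by the GAS letters, the medians without control replicate 3 were 0.35 with a match (12 members) and 0.042 without (22 members). With all 6 arrays they were 0.15 and -0.021. Members below background on every array are again in each of these groups. Leaving out control replicate 3 because it stood high raises such values by construction.

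The other arrays moved the counts in other ways. Without control replicate 1, 0 members were higher by the 2-fold threshold (0.573% of all rows) and 1 was lower, SAMD9L at -1.39 (0.713% of all rows). Without anti-miR-503 replicate 1, IFIT1 and IFI44 were higher at 1.05 and 1.80 (2.42% of all rows) and SAMD9L was lower at -1.50 (3.81% of all rows). No member passed the adjusted threshold in that fit, which 0.718% of all rows did. Without both control replicate 3 and anti-miR-503 replicate 1, 6 members were higher, RSAD2 below background among them (3.09% of all rows) and 1 was lower, SAMD9L at -1.13 (4.43% of all rows). IFI44 alone then passed the adjusted threshold, at 2.16 (SE 0.30; limma adjusted p = 0.0144), as did 2.37% of all rows. These arrays were left out after their closeness was known, so the counts describe how far the results rest on them.

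The rest of the pathway was followed with other lists. Of 20 interferon ligand genes measured of 21 listed, 0 were above background on any array, interferon beta and gamma included. Of 9 receptor and kinase genes, 8 were above background on all arrays and 0 passed the 2-fold threshold in either direction. IFNAR1 and IFNAR2, the chains of the type I receptor, had log2 fold changes of 0.0048 (SE 0.24) and 0.61 (SE 0.29), and the kinases JAK1 and TYK2 0.32 (SE 0.28) and -0.0017 (SE 0.26). The kinase JAK2 had -0.055 (SE 0.25). IFNGR2, a chain of the interferon gamma receptor named here after its values were seen, had 11.89, 12.94 and 13.05 in anti-miR-503 cells, against 11.44, 11.76 and 11.69 in control cells, without overlap (log2 fold change 0.99, SE 0.33; limma adjusted p = 0.756). IFNAR2 did not overlap either, so that 2 of the 9 genes lay higher without overlap (5.92% of all rows). In the other direction 1 of the 9, IFNLR1, lay lower without overlap (4.6% of all rows), on signals below background. Of 7 negative regulators and 9 genes that lead to interferon production, 0 passed in either direction.

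Genes of the same response outside the 43 members passed the 2-fold threshold in 3 cases. ISG15, a ubiquitin-like modifier, had log2 signals of 8.94, 9.74 and 10.19 in anti-miR-503 replicates 1 to 3, against 8.11, 8.14 and 8.91 in control replicates 1 to 3 (log2 fold change 1.24, SE 0.36; limma adjusted p = 0.756). HERC5, the ligase that attaches ISG15, had 11.90, 13.23 and 13.17 in anti-miR-503 cells, against 9.81, 10.85 and 11.56 in control cells (log2 fold change 2.03, SE 0.50; limma adjusted p = 0.756). Both had every anti-miR-503 array above every control array (5.92% of all rows), and they were the 2 genes past the threshold (0.872% of all rows) among 5 measured genes of ISG15 conjugation. DDX60, a helicase that promotes RNA sensing, was 1 of 10 measured RNA sensor and OAS genes past the threshold (again 0.872% of all rows). It had 12.64, 14.04 and 13.93 in anti-miR-503 cells, against 10.58, 11.62 and 12.68 in control cells (log2 fold change 1.91, SE 0.55; limma adjusted p = 0.756), with anti-miR-503 replicate 1 level with control replicate 3. Of the same 10 genes, 2 others, OASL and DHX58, lay higher without overlap (5.92% of all rows) and 0 lower (4.6%). Both are named after their values were seen. Their log2 fold changes were 0.99 (SE 0.26) and 0.91 (SE 0.34), short of 2-fold. DHX58 was above background on 1 array only. In ISG15, HERC5 and DDX60, as in IFIT2, IFIT3, GBP1 and PARP14, control replicate 1 was the lowest and control replicate 3 the highest of the controls. Other members had another order. Control replicate 1 was the highest of the controls for LGALS3BP and IFI6, and control replicate 2 was the lowest for the IFITM genes. How many members and rows shared the joint order was not counted.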

How the data were processed

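RNA of 6 MSTO cultures (3 anti-miR-503, 3 control) was hybridized to Clariom S arrays. The authors processed the arrays with the Transcriptome Analysis Console by RMA and deposited 1 log2 signal per row and array, background-corrected, quantile-normalized and summarized over probes. These values were used as deposited. Genes were named through the platform annotation (17709 rows), whose genome build was not given in the sources used here. Array control rows (2903) were left out, and 612 of them, the negative controls, set the background. The anti-miR-503 and control groups were fitted over 21448 rows in limma 3.58.1 (R 4.3.3; lmFit, eBayes) with Benjamini-Hochberg adjustment. P-values measure the spread between these cultures, and the number of arrays limits the precision. The fit was tested on simulated data. Promoter letters were searched with Python 3.11.15.

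The members, lists and tests were chosen with earlier results of these data known. Values per array are given for members past the 2-fold threshold, members without overlap and a log2 difference of at least 0.5, transcription factors, the 4 members with the highest mean, the 6 with control replicate 3 farthest from the other controls, the 6 with the largest change without it and the IFITM genes. Values per array of further members were added after they were seen. Alternatives were other variance models, filters, normalizations, weights, thresholds, a replicate block and leaving out arrays.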

Additional observations from a re-analysis of the deposited data

How the results depend on the processing

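The log2 fold change of the named members and the counts were recomputed under 19 alternatives. By an unadjusted p and 2-fold, 1 member was higher. The count was 0 by an unpaired t-test on each row (0.177% of all rows), a test the paper does not name for the arrays. It was 2 after a second quantile normalization (0.932%) and 2 after centring on the array median (0.993%). With array weights it was 3 (1.59%), RSAD2 below background among them. It was 6 without control replicate 3 and anti-miR-503 replicate 1 together (3.09%), 3 at 1.5-fold (2.86%), and 0 to 5 when each array was left out. The member called was not always IFI44. Without control replicate 2 it was IFIT1 alone, and without anti-miR-503 replicate 3 it was RSAD2 alone, below background. Lower members numbered 0, and 1 without both arrays, with 0 to 1 over the single arrays. Past the adjusted threshold there were 0, and 1 without both arrays. The unpaired t-test at an unadjusted p of 0.05 or less called 2 members, IFIT1 and IFIT3, and 0 after Benjamini-Hochberg adjustment. Members whose groups did not overlap numbered 4, 6 to 13 over the single arrays (16.9% to 31.9% of all rows) and 21 without both (48.1% of all rows), where fewer arrays have to be apart.

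The log2 difference changed sign for 10 of the 19 named members in at least 1 setting: IRF7 gave -0.016 after a second quantile normalization, and leaving out each array in turn gave -0.14 to 0.17 for IRF7, -0.17 to 0.33 for IRF9, -0.20 to 0.66 for IFI27, -0.35 to 0.69 for IFI44L, -0.15 to 0.36 for IFITM1, -0.087 to 0.24 for IFITM3, -0.17 to 0.47 for SAMD9, -0.39 to 0.75 for PARP14, -0.54 to 0.16 for SP100 and -0.81 to 0.13 for LGALS3BP. IRF7 and IFI27 were below background on every array, so theirs are differences between background signals. IFIT1 stayed between 0.82 and 1.07 when each array was left out in turn, and was 1.15 without both control replicate 3 and anti-miR-503 replicate 1. Over the single arrays the median log2 fold change of the members ran from -0.041 to 0.21, and the difference of the set's mean level from -0.0037 to 0.29. The causes were not tested. With the replicate number as a block 1 member was again higher (IFI44, limma adjusted p = 0.572), and its SE was 0.32 against 0.49 without the block. Deviations of same-numbered arrays from their group means had r of -0.10, 0.21 and 2.9e-05 over all rows. As control replicate 3 and anti-miR-503 replicate 1 stood apart from their groups, these values cannot settle whether the arrays were paired.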
